A study of Rattus norvegicus with 17 samples.

Results

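Testes of rat fetuses exposed in the womb to the 2 lowest doses of dipentyl phthalate (DPeP), a phthalate ester plasticizer, were compared as a single group with testes of fetuses whose dams received corn oil only. The 6 libraries at 1 and 11 mg/kg/d and the 3 vehicle libraries were chosen by their dose labels, and make up 9 of the 17 libraries of the series. Pooling both doses asks whether they share an effect that 3 libraries a dose would be too few to show. The dams were wild-type Sprague Dawley rats dosed on gestational days 17 to 21 in 2.5 mL of corn oil per kg, also in the vehicle group. Fetal testes were taken on day 21, and each library holds polyA-selected RNA of 1 testis or of 2 testes pooled within a litter. The 3 libraries at 100 mg/kg/d and the 5 libraries at 300 mg/kg/d entered the same fit, and their values are given in the text for some of the genes named.

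In the fetal testis, Leydig cells of the interstitium take up or make cholesterol, carry it into mitochondria and convert it to androgens, and they also secrete INSL3, a hormone that acts in testis descent. Phthalates with side chains of intermediate length are known to lower androgen synthesis in fetal rat Leydig cells when the dams are dosed in late gestation. Cholesterol is made from acetyl-CoA by way of HMG-CoA, mevalonate and lanosterol, and the genes of that route are known targets of the SREBP-2 transcription factor, which works beside the CCAAT-binding factor NF-Y.

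Counts assigned to genes ranged from 14282274 to 18755376 in the low-dose libraries and from 15948971 to 17920695 in the vehicle libraries. All 9 carried the markers of a fetal testis. The Sertoli cell hormone gene Amh ranged from 1312 to 1752 CPM (a gene's counts relative to the library's total) in the low-dose libraries and from 1177 to 1634 CPM in the vehicle libraries, and the germ cell helicase gene Ddx4 ranged from 38.8 to 74.2 CPM in low-dose and from 52.0 to 69.9 CPM in vehicle libraries. Foxl2, the defining gene of ovarian granulosa cells, did not reach the count filter. Mitochondrial transcripts took 5.04% ± 0.393 of gene counts in the low-dose libraries (SD, n = 6) and 5.95% ± 0.326 in the vehicle libraries (SD, n = 3). The groups did not overlap in that share, and the exact two-sided permutation p of 0.0119 is the smallest that 6 against 3 libraries allow. It came to 0.0893 after Benjamini-Hochberg adjustment over 15 such measures. The part of this share in the results below was not tested. A pair of libraries at 100 mg/kg/d stood apart, with mitochondrial shares of 7.76% and 9.05%, and the pooled count of called genes is given with and without them.

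Across the 18005 genes tested, none passed an adjusted p of 0.05 in the pooled comparison (0%; edgeR quasi-likelihood F test, Benjamini-Hochberg adjustment). Unadjusted p-values fell below 0.05 for 758 genes, which is 4.21% of those tested. These were 376 genes with higher values (2.09%) and 382 with lower values (2.12%) in the low-dose libraries. All 6 low-dose libraries lay below all 3 vehicle libraries for 445 genes (2.47%) and above them for 261 genes (1.45%). The median standard error of a log2 fold change was 0.153 in the pooled comparison, against 0.177 at 1 mg/kg/d and 0.176 at 11 mg/kg/d taken alone, and the 95% intervals of genes with at least 1 CPM had a median half-width of 0.29. No gene was called at 1 or at 11 mg/kg/d alone, where 891 genes (4.95%) and 633 genes (3.52%) had an unadjusted p under 0.05. The count at 11 mg/kg/d depended on the fit, with 26 genes called by DESeq2, 18 by edgeR without the 100 mg/kg/d group and 12 by edgeR in the 9 libraries with 3 dose groups. Of the genes described below, those 12 included RGD1311744, Cyp17a1, Me1, Mrap, Dusp27, Ddit4, Bhmt, Gsta1 and Gsta2. When the 9 libraries were fitted alone, with the low doses as 1 group, edgeR called 3 genes, namely RGD1311744, Me1 and Spon1. DESeq2 on all 17 libraries called RGD1311744 only. Without the pair of libraries at 100 mg/kg/d that stood apart, RGD1311744 was likewise the only gene called. Whether libraries of a group came from different dams is not stated, so p-values measure the spread between these samples.

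**Figure D1:**
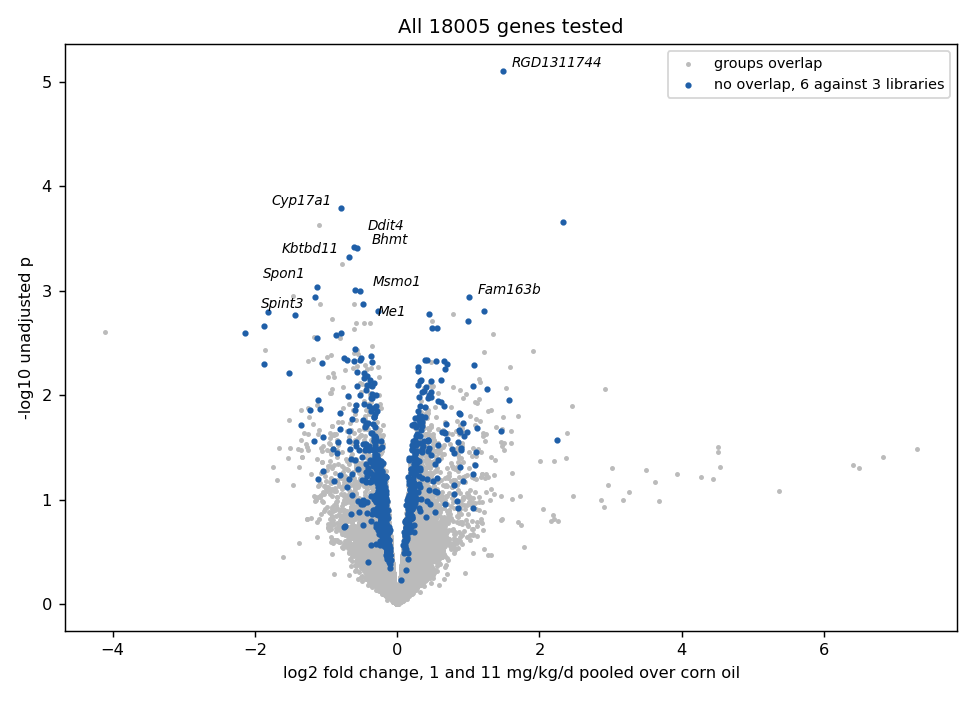
Each point is 1 of the 18005 genes tested; the horizontal axis gives the log2 fold change of the pooled 1 and 11 mg/kg/d libraries over corn oil and the vertical axis the -log10 of the unadjusted p of the edgeR quasi-likelihood test. Blue points are the 706 genes (3.92%) whose 6 low-dose libraries do not overlap the 3 vehicle libraries, and RGD1311744 lies highest at an unadjusted p of 7.84e-06.

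The smallest p of the pooled comparison belonged to RGD1311744 (ENSRNOG00000005960), which lies on the minus strand of chromosome 8:39870563-39893187 of the mRatBN7.2 build, between the olfactory receptor genes Olr1307 and Olr1308. No exon of another gene overlaps it. The deposited tables give it a symbol but no function. RGD1311744 had 125, 134 and 132 CPM at 1 mg/kg/d and 194, 109 and 158 CPM at 11 mg/kg/d, against 56.5, 46.1 and 49.4 CPM in vehicle libraries. The lowest low-dose library stood above the highest vehicle library, and the spread between vehicle libraries was small. The pooled mean was 142 ± 30.1 CPM in the low-dose libraries (SD, n = 6) and 50.7 ± 5.32 CPM in the vehicle libraries (SD, n = 3), a 2.79-fold difference with a log2 fold change of 1.48 (SE 0.25, 95% interval 0.97 to 2.00). Its adjusted p was 0.141 in the fit of all libraries by edgeR. It was 0.00119 in the 9 libraries alone with edgeR, 0.00214 with DESeq2 and 0.129 with limma-voom, and the gene was called under 16 of 30 alternative settings. Those were all 10 that were chosen after seeing the data, of which 9 leave 1 library out of the 9-library fit, and 6 of the other 20.

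By dose, RGD1311744 had log2 fold changes of 1.36 at 1 mg/kg/d, 1.60 at 11 mg/kg/d, 1.74 at 100 mg/kg/d and 1.49 at 300 mg/kg/d, all against the same 3 vehicle libraries. At 300 mg/kg/d its lowest library had 86.7 CPM, above each vehicle library, and the calls at 100 and 300 mg/kg/d passed with adjusted p of 0.00197 and 0.00161 by edgeR. The difference between 11 and 1 mg/kg/d was 0.24 on the log2 scale (SE 0.26), within its error. Titles of the libraries carry a sample code (S446, S447 or S448) whose meaning is not stated, and each code holds 1 vehicle library. The only low-dose library of S446 is 10 at 1 mg/kg/d, so its ratios cover that dose alone. S447 holds library 09 at 1 mg/kg/d and libraries 03 and 17 at 11 mg/kg/d. S448 holds library 02 at 1 mg/kg/d and library 16 at 11 mg/kg/d. Within the codes the log2 ratio of low-dose to vehicle levels was 1.51 in S446, 1.69 in S447 and 1.04 in S448.

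Spon1, which encodes the extracellular matrix protein spondin 1, had 20.8, 24.8 and 22.2 CPM at 1 mg/kg/d and 32.1, 19.1 and 15.2 CPM at 11 mg/kg/d, against 55.0, 51.7 and 39.8 CPM in vehicle libraries. Every low-dose library lay below every vehicle library, with a pooled log2 fold change of -1.13 (SE 0.29, 95% interval -1.74 to -0.52) and an adjusted p of 0.892 by edgeR in the fit of all libraries. In the 9 libraries alone its adjusted p was 0.0497 by edgeR, and with the sample code in that fit it was 0.226, so the call was lost. Spon1 was called under 3 of 30 alternative settings. At the higher doses the log2 fold change of Spon1 was -0.69 (SE 0.34) at 100 mg/kg/d and -0.18 (SE 0.3) at 300 mg/kg/d. The 5 libraries at 300 mg/kg/d spread from 23.5 to 75.2 CPM and overlapped the vehicle libraries. Within the sample codes the log2 ratios were -1.20 in S446, -0.78 in S447 and -1.44 in S448.

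Me1, the cytosolic malic enzyme that supplies NADPH for lipid synthesis, had 246, 230.2 and 255 CPM at 1 mg/kg/d and 212, 248 and 224 CPM at 11 mg/kg/d, against 337, 326 and 321 CPM in vehicle libraries. The vehicle libraries lay close together, and the highest low-dose library was below all of them. The pooled log2 fold change was -0.48 (SE 0.13, 95% interval -0.74 to -0.21), with an adjusted p of 0.892 over all libraries and 0.0497 in the 9 libraries alone by edgeR. With the sample code in the 9-library fit the adjusted p was 0.102, which ended the call, and Me1 was called under 2 of 30 alternative settings. The log2 fold changes by dose were -0.43 at 1 mg/kg/d, -0.52 at 11 mg/kg/d, -0.65 at 100 mg/kg/d and -0.81 at 300 mg/kg/d, and the adjusted p was 0.0314 at 100 mg/kg/d and 0.00115 at 300 mg/kg/d. The log2 ratios within the codes were -0.36 in S446, -0.53 in S447 and -0.44 in S448.

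**Figure D2:**
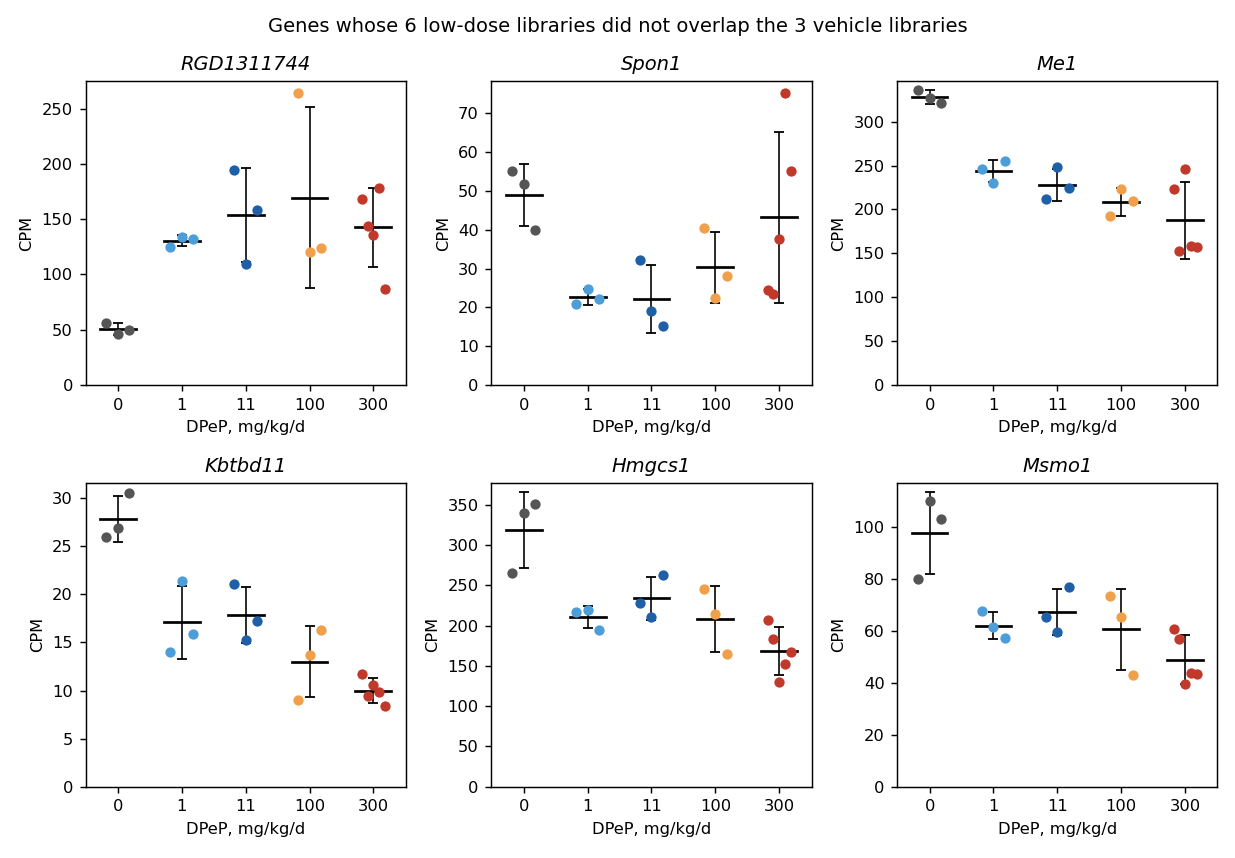
Levels in CPM (vertical axes, from 0) of 6 genes in every library by dose (horizontal axes, mg/kg/d, 0 being corn oil); points are libraries, black lines the means and bars 1 SD. In each of these genes the 6 libraries at 1 and 11 mg/kg/d lie apart from the 3 vehicle libraries, above them in RGD1311744 and below them in the other 5.

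The genes of cholesterol synthesis had the lowest median log2 fold change of the lists with 5 or more tested members, apart from the adrenal and red blood cell markers. Among 22 tested members none was called, 18 had a negative pooled log2 fold change against 49.4% of all genes, and 12 had an unadjusted p under 0.05 with lower values against 2.12% of all genes. In 8 members all low-dose libraries lay below all vehicle libraries, against 2.47% of all genes. The median log2 fold change was -0.32, against 0.0029 over all genes tested. It was -0.36 at 1 mg/kg/d and -0.29 at 11 mg/kg/d. The members share these libraries, so the counts are a description and not a test of the list. Those below without overlap, of which 6 were chosen for mention after their values were seen, ran from the entry of the mevalonate route to its last sterol steps.

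At the entry, Hmgcs1, which makes HMG-CoA, lies on chromosome 2:51649497-51667100 and had 217, 219.8 and 195 CPM at 1 mg/kg/d and 228, 210.5 and 262 CPM at 11 mg/kg/d, against 265, 340.1 and 351 CPM in vehicle libraries. The pooled log2 fold change of Hmgcs1 was -0.52 (SE 0.14, 95% interval -0.81 to -0.24), with an adjusted p of 0.892 by edgeR. In the mevalonate steps, log2 fold changes were -0.37 (SE 0.11, 95% interval -0.61 to -0.13) for the kinase Pmvk, -0.30 (SE 0.11, 95% interval -0.53 to -0.071) for the decarboxylase Mvd and -0.58 (SE 0.25, 95% interval -1.09 to -0.058) for the isomerase Idi1. Idi1 shares 100 exon bases with Wdr37 on the other strand and Mvd 305 with an unnamed gene, and the library kit does not mark strand, so those counts are less certain.

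In the sterol steps, the methylsterol oxidase gene Msmo1 lies on chromosome 16:24980697-24998016 and had 67.4, 61.3 and 57.2 CPM at 1 mg/kg/d and 65.2, 59.5 and 76.8 CPM at 11 mg/kg/d, against 80.0, 109.7 and 103 CPM in vehicle libraries. Its pooled log2 fold change was -0.60 (SE 0.15, 95% interval -0.92 to -0.27), with an adjusted p of 0.892 by edgeR. The lanosterol demethylase gene Cyp51 had 161, 139 and 146 CPM at 1 mg/kg/d and 164, 144 and 188 CPM at 11 mg/kg/d, against 188, 222 and 228 CPM in vehicle libraries, with 1 low-dose library level with the lowest vehicle library. Sc5d, the sterol desaturase, had a log2 fold change of -0.37 (SE 0.13, 95% interval -0.65 to -0.10), the reductase Hsd17b7 -0.41 (SE 0.20, 95% interval -0.82 to -0.0011) and the isomerase Ebp -0.30 (SE 0.17, 95% interval -0.64 to 0.051). Insig1, which holds SREBP in the endoplasmic reticulum and is itself a target of it, had -0.43 (SE 0.14, 95% interval -0.72 to -0.14). The median of the 18 tested genes of cholesterol uptake, transport and storage was 0.02.

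Across the doses, Hmgcs1 had log2 fold changes of -0.60 at 1 mg/kg/d, -0.45 at 11 mg/kg/d, -0.61 at 100 mg/kg/d and -0.92 at 300 mg/kg/d, and Msmo1 of -0.65 at 1 mg/kg/d, -0.54 at 11 mg/kg/d, -0.69 at 100 mg/kg/d and -0.998 at 300 mg/kg/d, all against the same vehicle libraries. At 300 mg/kg/d both passed the test, with adjusted p of 0.000572 for Hmgcs1 and 0.00098 for Msmo1 by edgeR. There 11 of the 22 list members were called with lower values, against 1.41% of all genes. Within the codes S446, S447 and S448 the ratios were -0.8, -0.57 and -0.31 on the log2 scale for Hmgcs1 and -0.93, -0.61 and -0.33 for Msmo1. In the 9-library fit by edgeR the adjusted p was 0.252 for Hmgcs1 and 0.216 for Msmo1, and 0.226 and 0.311 with the sample code. In both genes vehicle library 01 was the lowest of its group and library 17 at 11 mg/kg/d the highest low-dose library. Leaving out either widens the gap by construction, and brought both genes past the threshold, with an adjusted p as low as 0.028 by edgeR. These settings were chosen after seeing the data, and each gene was called under 2 of 30 alternatives.

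The upstream sequences of these genes are shown because 18 of the 22 list members had lower values. They are the 250 bases before the annotated start in RefSeq's GRCr8 assembly, a different build from that of the counts, and both lie on the plus strand. Capitals mark CCAAT or its reverse complement ATTGG, the letters of the NF-Y box. The first is Hmgcs1 (chr2:53382054-53382303) and the second Msmo1 (chr16:29746863-29747112).
Hmgcs1: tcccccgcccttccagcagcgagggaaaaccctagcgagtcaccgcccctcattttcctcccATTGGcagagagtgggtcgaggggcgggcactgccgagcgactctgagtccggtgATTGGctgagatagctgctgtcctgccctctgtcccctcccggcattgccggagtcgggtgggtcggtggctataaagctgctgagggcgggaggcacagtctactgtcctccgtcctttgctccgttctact
Msmo1: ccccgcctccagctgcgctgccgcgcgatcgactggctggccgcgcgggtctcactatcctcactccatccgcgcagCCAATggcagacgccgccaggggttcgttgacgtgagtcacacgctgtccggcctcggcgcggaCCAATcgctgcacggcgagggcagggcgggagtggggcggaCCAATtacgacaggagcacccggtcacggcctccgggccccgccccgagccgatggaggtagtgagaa
CCAAT, on either strand, occurred 2 times before Hmgcs1 and 3 times before Msmo1. It was present in 13 of the 16 cholesterol synthesis promoters that RefSeq's table held, against 34.0% of all 33469 promoters with the same window. The GC box letters GGGCGG were present in 14 of 16, against 30.5% of all promoters. The letters TCACNCCAC of a sterol element were in none of the 16 windows, against 0.974% of all promoters. A match or its absence describes these letters only.

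**Figure D3:**
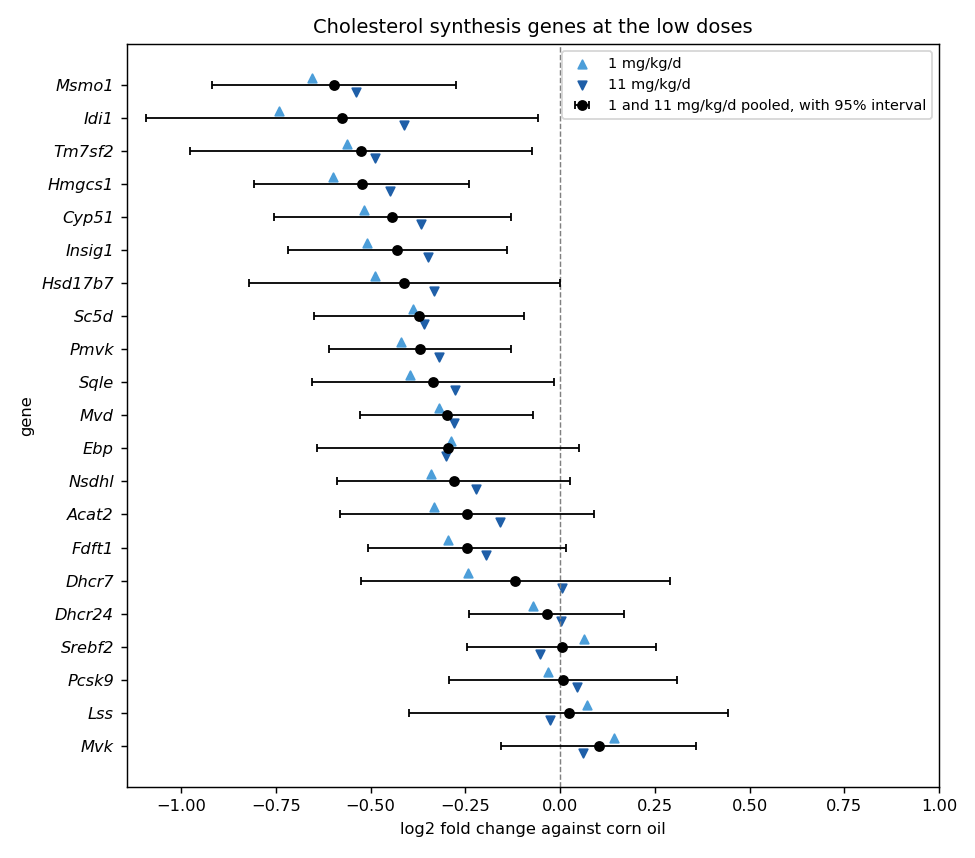
Log2 fold changes against corn oil (horizontal axis) of 21 of the 22 tested cholesterol synthesis genes (vertical axis, ordered by the pooled value); black points with bars are the pooled low doses with 95% intervals, and triangles are 1 mg/kg/d (pointing up) and 11 mg/kg/d (pointing down). Both doses lie on the same side of 0 for most genes, 11 of the intervals drawn lie wholly below 0, and no gene was called after adjustment.

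Among the genes of androgen synthesis none of 14 was called, 12 had a negative pooled log2 fold change, 4 had an unadjusted p under 0.05 with lower values against 2.12% of all genes, and the median was -0.24. The lowest value belonged to Cyp17a1 on chromosome 1:245535462-245541573, the enzyme that turns progestins into androgens. It had 1258, 923 and 798 CPM at 1 mg/kg/d and 828, 752 and 698 CPM at 11 mg/kg/d, against 1641, 1286 and 1584 CPM in vehicle libraries. All 6 low-dose libraries were below the vehicle libraries, although the highest at 1 mg/kg/d came close to the lowest vehicle library. The pooled mean was 1.73-fold lower, with a log2 fold change of -0.79 (SE 0.17, 95% interval -1.15 to -0.44) and an adjusted p of 0.892 by edgeR. By dose the log2 fold changes were -0.60 at 1 mg/kg/d, -0.99 at 11 mg/kg/d, -1.24 at 100 mg/kg/d and -2.12 at 300 mg/kg/d. In the edgeR fit of all libraries only the values at 100 and 300 mg/kg/d were called, with adjusted p of 0.0028 and 4.85e-07. In the 9 libraries with 3 dose groups, edgeR also called Cyp17a1 at 11 mg/kg/d. Within the codes the ratios were -0.69 in S446, -0.97 in S447 and -0.75 in S448.

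Star, the carrier of cholesterol into mitochondria, had 562, 382 and 345 CPM at 1 mg/kg/d and 421, 379 and 397 CPM at 11 mg/kg/d, against 549, 659 and 688 CPM in vehicle libraries. Library 02 at 1 mg/kg/d lay within the vehicle range and the other 5 lay below it, for a log2 fold change of -0.61 (SE 0.17, 95% interval -0.98 to -0.25). That library was the low-dose library nearest to vehicle in both Star and Cyp17a1, so leaving it out widens the gap by construction. Without it in the 9-library fit their adjusted p was 0.00769 and 0.00308 by edgeR, against 0.386 and 0.252 with all 9 libraries. Each gene was called under 1 of 30 alternative settings, which was chosen after seeing the data. Fdx1, the electron donor of the side-chain cleavage enzyme, had -0.49 (SE 0.17, 95% interval -0.84 to -0.15). Cyp11a1, which cuts the side chain, had 1073, 955 and 848 CPM at 1 mg/kg/d and 775, 633 and 601 CPM at 11 mg/kg/d, against 1078, 618 and 1051 CPM in vehicle libraries, and the groups overlapped widely with a log2 fold change of -0.19 (SE 0.15, 95% interval -0.50 to 0.12). That value lay between -0.41 and -0.059 when 1 vehicle library was left out. Hsd3b1 had -0.27 (SE 0.21, 95% interval -0.71 to 0.17), which was -0.17 without library 17 at 11 mg/kg/d, and close copies of that gene make its counts less certain.

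Of the other Leydig cell genes, Lhcgr, the receptor for luteinizing hormone, had 115, 97.0 and 80.3 CPM at 1 mg/kg/d and 78.6, 75.3 and 73.6 CPM at 11 mg/kg/d, against 174, 109 and 115 CPM in vehicle libraries. Its pooled log2 fold change was -0.62 (SE 0.20, 95% interval -1.04 to -0.21), with -0.44 at 1 mg/kg/d and -0.80 at 11 mg/kg/d. Scarb1, which takes up cholesterol from HDL, had 1032, 681 and 664 CPM at 1 mg/kg/d and 813, 584 and 717 CPM at 11 mg/kg/d, against 1236, 843 and 972 CPM in vehicle libraries and a pooled value of -0.44 (SE 0.16, 95% interval -0.79 to -0.10). Vehicle library 01 was the highest of the vehicle libraries in both genes, and without it the log2 fold change was -0.38 for Lhcgr and -0.28 for Scarb1. Nr5a1, the transcription factor SF-1 of steroidogenic cells, had -0.0062 (SE 0.11, 95% interval -0.24 to 0.23). Over the 23 Leydig markers, 17 had lower values, the median was -0.22, and the summed level ranged from 6490 to 9433 CPM in low-dose libraries and from 8346 to 10218 CPM in vehicle libraries (exact permutation p = 0.0476, adjusted over 15 measures 0.179, two-sided). In whole testes, fewer Leydig cells and less RNA per Leydig cell cannot be told apart.

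For Insl3 and Mrap the low doses lay apart from each other in their values. Insl3 had 977, 839 and 769 CPM at 1 mg/kg/d and 668, 492 and 351 CPM at 11 mg/kg/d, against 814, 764 and 1009.5 CPM in vehicle libraries, with log2 fold changes of -0.0015 at 1 mg/kg/d and -0.78 at 11 mg/kg/d. All libraries at 1 mg/kg/d stood within the vehicle range and all at 11 mg/kg/d below it. Mrap, an accessory protein of the ACTH receptor, had 15.7, 11.8 and 12.3 CPM at 1 mg/kg/d and 6.84, 6.18 and 5.71 CPM at 11 mg/kg/d, against 14.7, 12.1 and 15.0 CPM in vehicle libraries, with log2 fold changes of -0.066 at 1 mg/kg/d and -1.16 at 11 mg/kg/d. The difference between 11 and 1 mg/kg/d was -1.09 on the log2 scale for Mrap (SE 0.2, adjusted p 0.117 by edgeR) and -0.77 for Insl3 (SE 0.27, adjusted p 0.9996 by edgeR). Neither was called by edgeR with the low-count filter. DESeq2, limma-voom and edgeR without that filter called the difference for Mrap. Against vehicle, Mrap at 11 mg/kg/d had an adjusted p of 0.0604 by edgeR in the fit of all libraries. It was called by limma-voom, and by edgeR in the 9 libraries with 3 dose groups. The annotated exons of Insl3 overlap those of Jak3 on the same strand, and Jak3 was given no counts in any library.

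**Figure D4:**
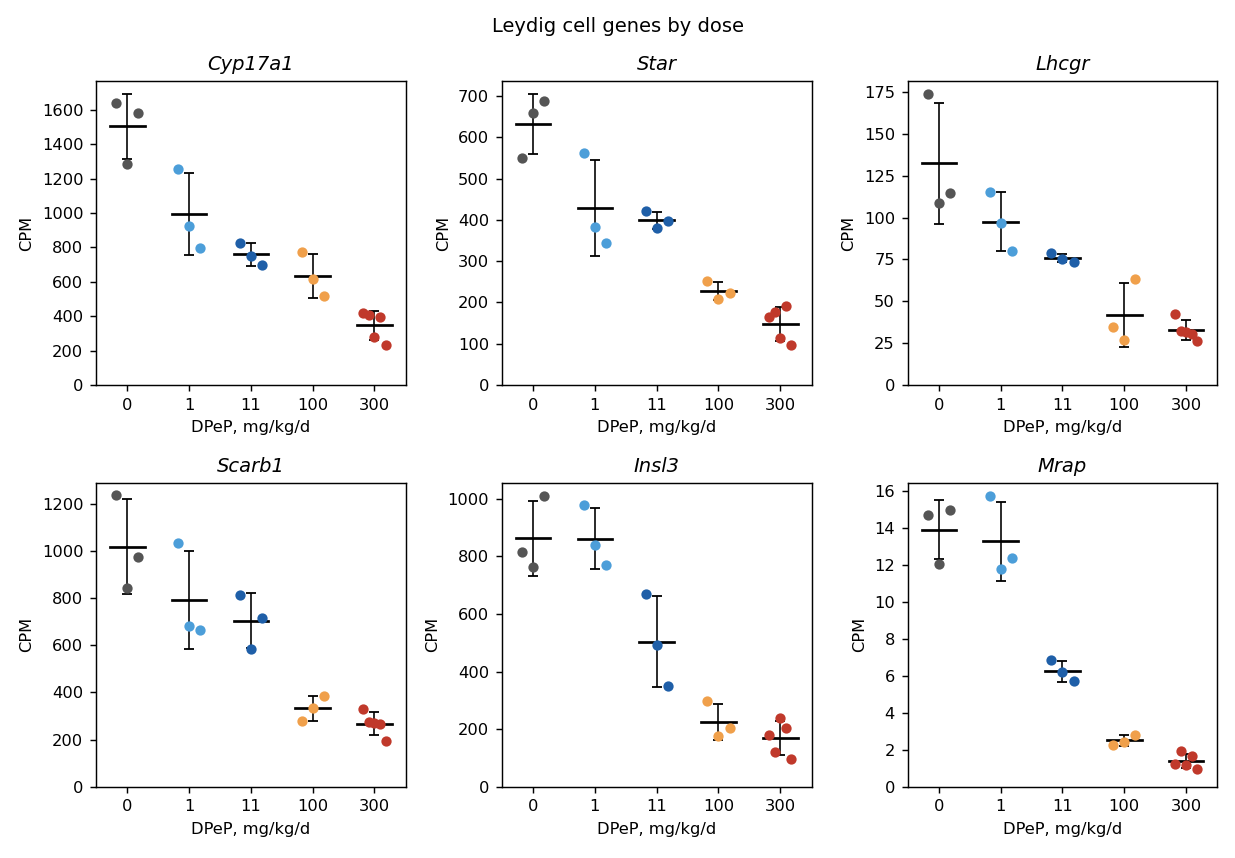
Levels in CPM (vertical axes, from 0) of 6 genes in every library by dose (horizontal axes, mg/kg/d, 0 being corn oil). Points are libraries, black lines the means and bars 1 SD. Mrap is on the adrenal cortex list and the other genes drawn are on the Leydig cell list. Means of Cyp17a1, Star, Lhcgr and Scarb1 are below vehicle at both low doses, while Insl3 and Mrap overlap the vehicle libraries at 1 mg/kg/d and lie below them from 11 mg/kg/d on.

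Between 11 and 1 mg/kg/d a single gene was called of 18005 (0.00555%), which was higher at 11 mg/kg/d. Dusp27 (ENSRNOG00000003722, chromosome 13:78349365-78378458) had 4.49, 3.90 and 6.30 CPM at 1 mg/kg/d and 14.9, 15.6 and 12.2 CPM at 11 mg/kg/d, against 5.64, 6.81 and 5.89 CPM in vehicle libraries. The 3 libraries at 11 mg/kg/d lay above all others of the 9, and the difference from 1 mg/kg/d was 1.53 on the log2 scale (SE 0.23, adjusted p 0.0265, edgeR). Against vehicle its log2 fold changes were -0.32 at 1 mg/kg/d, 1.22 at 11 mg/kg/d, 1.02 at 100 mg/kg/d and 1.02 at 300 mg/kg/d. The call was lost when vehicle library 15, either of libraries 02 and 09 at 1 mg/kg/d, or either of libraries 03 and 16 at 11 mg/kg/d was left out.

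Of the other genes with the smallest p in the pooled comparison, Ddit4, an inhibitor of mTORC1 signalling, had 105, 89.0 and 89.6 CPM at 1 mg/kg/d and 87.3, 58.1 and 74.2 CPM at 11 mg/kg/d, against 119.6, 118 and 143 CPM in vehicle libraries, with a log2 fold change of -0.61 (SE 0.14, 95% interval -0.91 to -0.31). Bhmt, which remethylates homocysteine, had 17.8, 14.6 and 18.5 CPM at 1 mg/kg/d and 10.4, 12.8 and 10.4 CPM at 11 mg/kg/d, against 22.1, 18.9 and 20.0 CPM in vehicle libraries and -0.56 (SE 0.13, 95% interval -0.84 to -0.29). Both lay further from vehicle at 11 than at 1 mg/kg/d, although the differences between the doses were not called. Kbtbd11 had 14.0, 21.3 and 15.9 CPM at 1 mg/kg/d and 21.0, 15.2 and 17.2 CPM at 11 mg/kg/d, against 26.0, 26.9 and 30.5 CPM in vehicle libraries, with a log2 fold change of -0.67 (SE 0.16, 95% interval -1.01 to -0.34) and nearly equal values at both doses. The protease inhibitor gene Spint3 had -1.16 (SE 0.30, 95% interval -1.79 to -0.52) at levels of 0.727 to 2.43 CPM in low-dose and 2.66 to 4.5 CPM in vehicle libraries. Fam163b, the only other one of the 10 with higher values, had 1.00 (SE 0.26, 95% interval 0.45 to 1.56), at 1.85 to 3.8 CPM in low-dose and 1.2 to 1.74 CPM in vehicle libraries. The adjusted p of these 5 genes was 0.892 by edgeR.

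Markers of other cell types also differed between the groups in their values. Red blood cell genes had lower values in 15 of 16 tested members, a median log2 fold change of -0.41, and summed levels of 2611 to 10154 CPM in low-dose libraries and 9083 to 10710 CPM in vehicle libraries. Beta globin Hbb-b1 had 1371, 2093 and 1454 CPM at 1 mg/kg/d and 1632, 2082 and 528 CPM at 11 mg/kg/d, against 2505, 2231 and 2515 CPM in vehicle libraries, and 4 other annotated genes overlap its exons. Muscle genes of peritubular myoid cells had higher values in 12 of 13 tested members, with a median of 0.20. Among them smooth muscle actin Acta2 had 531, 797 and 602 CPM at 1 mg/kg/d and 642, 669 and 493 CPM at 11 mg/kg/d, against 478, 463 and 445 CPM in vehicle libraries, and the myosin gene Myh11 187, 251 and 175 CPM at 1 mg/kg/d and 178, 209 and 207 CPM at 11 mg/kg/d, against 170.1, 152 and 122 CPM in vehicle libraries. All low-dose libraries were above vehicle in those 2 of the 13 genes, against 1.45% of all genes. Their log2 fold changes were 0.43 (SE 0.18, 95% interval 0.055 to 0.80) and 0.44 (SE 0.19, 95% interval 0.041 to 0.84). The calponin gene Cnn1 had 0.67 (SE 0.26, 95% interval 0.13 to 1.22). Over the 13 myoid members the values ran from -0.015 to 0.67. The summed myoid level was 3037 ± 332 CPM in low-dose libraries (SD, n = 6) and 2659 ± 75.0 CPM in vehicle libraries (SD, n = 3), with an exact two-sided permutation p of 0.0952, which was 0.238 after adjustment over the 15 measures. The part of these markers in the values of Leydig and cholesterol genes was not tested.

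Germ cell genes had medians of opposite sign at the low doses, with a median log2 fold change over 28 genes of -0.31 at 1 mg/kg/d and 0.08 at 11 mg/kg/d. No germ cell gene was called in either comparison or between the doses. Mael, of the piRNA pathway, had 112, 95.6 and 101 CPM at 1 mg/kg/d and 131, 159.7 and 128 CPM at 11 mg/kg/d, against 135, 157 and 145 CPM in vehicle libraries. All 3 libraries at 1 mg/kg/d and 2 of 3 at 11 mg/kg/d were below the vehicle libraries, and library 16 at 11 mg/kg/d was above them. Ddx4 had a pooled log2 fold change of -0.17 (SE 0.16, 95% interval -0.51 to 0.17). Of the Sertoli cell genes Amh had 0.014 (SE 0.18, 95% interval -0.35 to 0.38), Sox9, the factor that sets Sertoli fate, had 0.17 (SE 0.17, 95% interval -0.19 to 0.53), and inhibin alpha, Inha, which Leydig cells express as well, had -0.35 (SE 0.15, 95% interval -0.66 to -0.041).

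None of the remaining lists had a called member. The 5 tested adrenal cortex markers, which include Star and Mrap, had a median of -0.52 and the 20 oxidative stress genes had a median of -0.16. Medians lay between -0.11 and 0.09 for p53 targets and cell death, cell cycle, macrophages, PPAR targets and fatty acid oxidation, fatty acid synthesis, mesonephric duct epithelium, Sertoli cells, endothelial cells, immediate early genes, xenobiotic metabolism and interstitial fibroblasts. The germ cell median was -0.10, that of liver-type plasma proteins 0.14 and that of ovary and granulosa cell genes 0.19. The only tested seminal vesicle gene, Svs5, had 149.8, 78.9 and 101 CPM at 1 mg/kg/d and 85.0, 44.4 and 46.0 CPM at 11 mg/kg/d, against 268, 127 and 178 CPM in vehicle libraries, with a log2 fold change of -1.25 (SE 0.39, 95% interval -2.07 to -0.43).

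**Figure D5:**
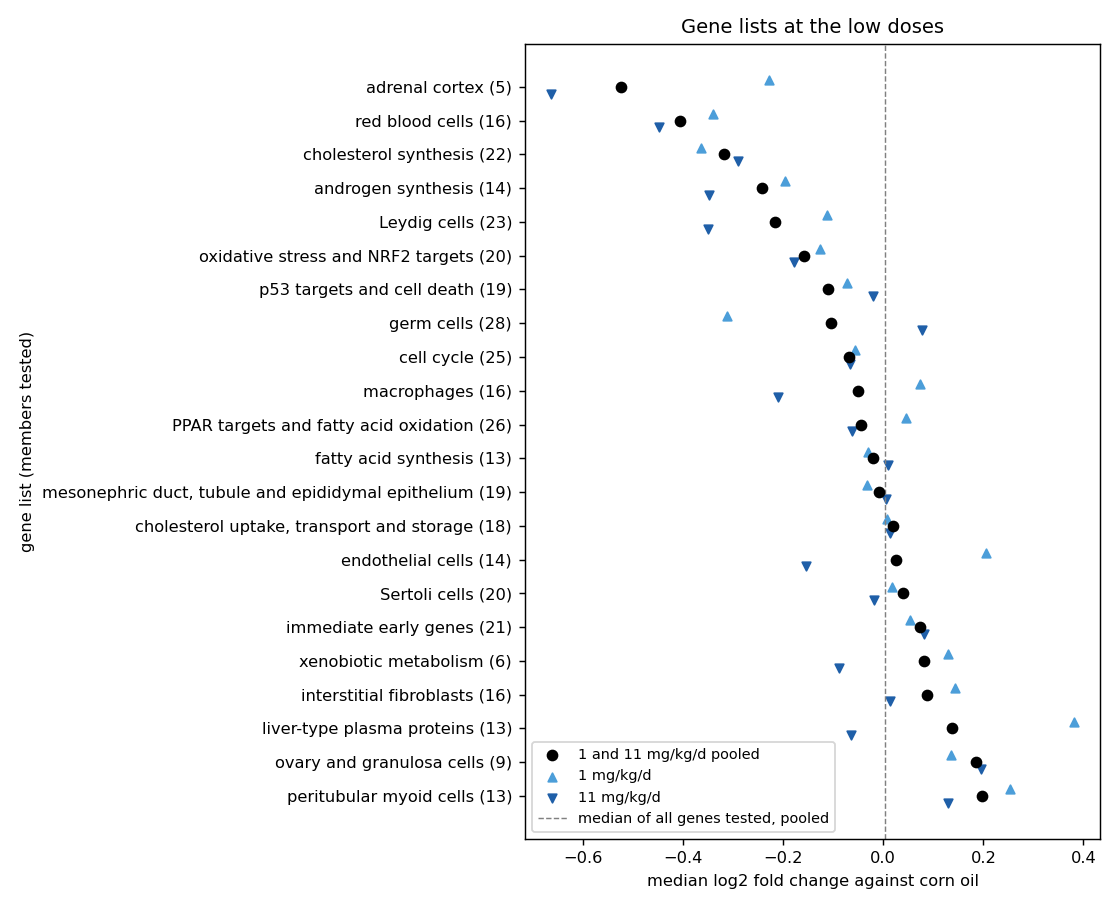
Median log2 fold change against corn oil (horizontal axis) of each gene list with at least 5 tested members (vertical axis, members tested in brackets); black points are the pooled low doses, triangles 1 mg/kg/d (pointing up) and 11 mg/kg/d (pointing down), and the dashed line is the pooled median of all genes, 0.0029. Medians lie below 0 at both doses for cholesterol synthesis, red blood cells, adrenal cortex, androgen synthesis, Leydig cells, oxidative stress, cell cycle and p53 targets. They lie on opposite sides of 0 for germ cells, endothelial cells, macrophages, liver-type plasma proteins and xenobiotic metabolism. The same holds, with values nearer 0, for PPAR targets, Sertoli cells, fatty acid synthesis and mesonephric duct epithelium.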

How the data were processed

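PolyA-selected RNA of 17 fetal testis samples was sequenced. The submitters' processing notes name Trimmomatic 0.36, STAR 2.5.2b, featureCounts of Subread 1.5.2 and the build mRatBN7.2. They do not state the strand setting of the counting. The deposited values are raw read counts per gene, per the file headers. Repeated rows were dropped (47125 rows held 30652 identifiers), as were 92 ERCC spike-ins, which left 30560 genes. The table for the whole series and the files per library held the same counts.

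Counts were fitted with edgeR 4.0.16 in R 4.3.3 (TMM, filterByExpr by dose group, quasi-likelihood F test) in 1 model of 17 libraries and 5 dose groups, which tested 18005 genes. The pooled contrast is the mean of the 1 and 11 mg/kg/d coefficients minus vehicle. Genes were called at an adjusted p under 0.05 (Benjamini-Hochberg, all genes tested). Levels are CPM on TMM-scaled library sizes, SE was derived from the fold change and its F value, and 95% intervals use the t distribution of the fit. Ratios within sample codes used a pseudocount of 0.5. Intervals cover the spread between these libraries.

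Of 421 entries in 23 gene lists, 401 matched a gene and 377 were tested; they cover the 23 groups shown with their medians in the results. Genes were named by a rule: a panel of 12 genes, called genes, the 10 with the smallest p among genes with a symbol, no overlap and a mean of 1 CPM or more, the members of each list with the smallest p and the highest level, and genes called between the low doses. The other genes named were chosen after their values were seen: Pmvk, Sc5d, Mvd, Idi1, Hsd17b7, Ebp, Cyp51, Insig1, Fdx1, Acta2, Myh11, Hbb-b1, Gsta2, Gsta4, Gstm1, Gstp1, Acadm, Fabp3, Hadhb, Fgf9 and Agtr2. Not every list member's own value is reported here. Members, lists and rules were chosen with earlier results of these data known. Alternatives used DESeq2 1.42.0, limma-voom (limma 3.58.1), other filters, scalings and sample sets. The fit was tested on simulated data. Promoter windows came from RefSeq (GRCr8).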

Additional observations from a re-analysis of the deposited data

Results flagged for a closer look

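Dusp27 differed between the low doses, with a log2 fold change of 1.53 at 11 against 1 mg/kg/d, as described above.

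Of 75 values examined over the 6 low-dose libraries, 9 had a single library far from the other 5; chance alone flags about 1 in 20. Library 17 at 11 mg/kg/d was lowest in Hsd3b1 (675 CPM, others 1035 to 1229), Hbb-b1 (528 CPM, others 1371 to 2093), the fatty acid binding protein gene Fabp3 (145 CPM, others 188 to 218) and the summed ovary and granulosa list (27.6 CPM, others 37.7 to 43.0). Library 09 at 1 mg/kg/d was lowest in the mitotic kinesin gene Kif11 (119 CPM, others 129 to 135), and highest in the immediate early gene Fosl2 (52.0 CPM, others 42.8 to 45.1) and in the summed liver-type plasma proteins (239 CPM, others 128 to 166). Library 10 at 1 mg/kg/d was highest in Amh (1752 CPM, others 1312 to 1422). Library 02 at 1 mg/kg/d was highest in the summed adrenal cortex list (648 CPM, others 419 to 478).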

How the results depend on the processing

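No paired analysis was possible because the groups share no replicate numbers; the sample codes of the titles were entered as a factor instead. The pooled comparison called 0 genes with edgeR over all libraries, with DESeq2's size factors, robust dispersion, a mean CPM of at least 1, limma-voom and the sample code in the fit of 17 libraries. It called 1 with DESeq2, without the low-count filter, in 9 libraries with 3 dose groups, without the 100 mg/kg/d group, with the sample code in 9 libraries and without libraries 05 and 18 at 100 mg/kg/d (chosen after seeing the data), each time RGD1311744, and 3 in 9 libraries with 1 low-dose group. Leaving out 1 library at a time gave 0 to 1 genes over all libraries (Procr, without vehicle library 08) and 1 to 7 in the 9-library fit (chosen after seeing the data), most without library 17 at 11 mg/kg/d. At 1 mg/kg/d 1 gene was called without the filter and in 9 libraries. At 11 mg/kg/d the count, 0 with edgeR over all libraries, was 26 with DESeq2, 2 with limma-voom, 1 with robust dispersion, 19 without the filter, 12 in 9 libraries, 18 without the 100 mg/kg/d group, 1 with the sample code, 0 to 2 with 1 library left out and 19 without libraries 05 and 18. Between 11 and 1 mg/kg/d it was 1, and 10 with DESeq2, 4 with limma-voom, 6 without the filter, 3 in 9 libraries, 2 without the 100 mg/kg/d group, 0 to 3 with 1 library left out and 2 without libraries 05 and 18. Fewer samples and other genes tested enter these fits; further causes were not tested. The pooled log2 fold change changed sign with 1 library left out, of all libraries or of the 9, for Nr5a1 (-0.098 to 0.052), Amh (-0.105 to 0.126) and Alb (-0.76 to 3.37, at 0.318 to 41.8 CPM in low-dose libraries). With 1 of all libraries left out it ranged from -0.268 to -0.0175 for Ddx4 and from 0.0545 to 0.361 for Sox9. Those of RGD1311744 (1.38 to 1.58), Spon1 (-1.31 to -1.02), Me1 (-0.508 to -0.446), Hmgcs1 (-0.642 to -0.449), Msmo1 (-0.723 to -0.501) and Cyp17a1 (-0.913 to -0.715) kept their sign under all 30 alternatives. The depth of these libraries limits genes under about 1 CPM most.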

Other observations

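Among the glutathione transferase genes on the oxidative stress list, Gsta1, Gsta2 and Gstm1 had all 3 libraries at 11 mg/kg/d below the vehicle libraries. Those of Gsta4 and Gstp1 overlapped them. For Gstm1 the margin was narrow, at 183 CPM in the highest library at 11 mg/kg/d and 184 CPM in the lowest vehicle library. How many of all genes separate in this way was not counted. Gsta1 had 394, 283 and 359 CPM at 1 mg/kg/d and 240.4, 246 and 191 CPM at 11 mg/kg/d, against 410.2, 379 and 439 CPM in vehicle libraries, with log2 fold changes of -0.25 at 1 mg/kg/d and -0.86 at 11 mg/kg/d, and Gsta2 had 15.0, 22.3 and 14.6 CPM at 1 mg/kg/d and 3.57, 4.64 and 4.14 CPM at 11 mg/kg/d, against 25.6, 10.6 and 13.9 CPM in vehicle libraries, with 0.054 at 1 mg/kg/d and -2.01 at 11 mg/kg/d. The difference between the doses was -2.07 for Gsta2 (SE 0.38, adjusted p 0.117 by edgeR) and was not called. It was called by limma-voom, and by edgeR without the low-count filter and in the 9 libraries with 3 dose groups. At 11 mg/kg/d the log2 fold changes of the other members were -0.26 for Gstm1, -0.17 for Gsta4 and -0.033 for Gstp1. Reads of these close copies may be split between them.

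Ppara, a fatty acid receptor that some phthalate monoesters activate in rodents, had 6.92, 7.39 and 5.92 CPM at 1 mg/kg/d and 7.27, 6.13 and 6.91 CPM at 11 mg/kg/d, against 5.95, 4.30 and 4.27 CPM in vehicle libraries, a pooled log2 fold change of 0.48 (SE 0.20, 95% interval 0.067 to 0.90). Its targets Acadm, Fabp3 and Hadhb, of fatty acid oxidation and transport, lay below vehicle in all 6 low-dose libraries, with log2 fold changes of -0.32, -0.34 and -0.23, and none was called. They were the only 3 of the 26 tested members of their list to do so, against 2.47% of all genes. Fabp3 shares exon bases with Zcchc17 on the other strand. Prdx1, a peroxiredoxin, had 322, 263 and 343 CPM at 1 mg/kg/d and 308, 328 and 276 CPM at 11 mg/kg/d, against 366, 384 and 395 CPM in vehicle libraries. Fgf9, a Sertoli cell growth factor, and Agtr2, an angiotensin receptor, also lay below vehicle without overlap, at -0.46 (SE 0.19, 95% interval -0.86 to -0.051) and -0.30 (SE 0.19, 95% interval -0.69 to 0.10). Such separation held for 1 of 20 tested Sertoli cell genes and 2 of 23 Leydig markers, against 2.47% of all genes. At the higher doses Fgf9 had values above vehicle, with log2 fold changes of 0.72 at 100 mg/kg/d and 0.97 at 300 mg/kg/d, the value at 300 mg/kg/d being called with an adjusted p of 0.00924 by edgeR. Of the 20 tested Sertoli cell genes 12 had higher and 8 lower values in the low-dose libraries.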
